A study of Drosophila melanogaster with 3 samples.

Results

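Cytosolic ribosomal protein genes encode the proteins of the ribosomes that translate messenger RNA in the cytoplasm. Members were the genes whose symbol in the fly annotation begins with RpL or RpS followed by a digit, P or a, and 84 of the 11922 genes with a value met this rule. They comprised 33 genes of the small subunit, 46 of the large subunit, and 5 relatives with symbols ending in -like. The first 79 are called core members. A further 8 symbols of the rule in the annotation (RpL10, RpL19, RpL27A, RpL31, RpS10b, RpS12, RpS2 and RpS21) are not analysed here. To examine gene expression in AKHR+ neurons, brain neurons that carry the receptor of the hunger hormone AKH, RNA of 3 samples was amplified and sequenced. The flies were 5 days old, kept on normal food, and carried nSyb-AD-AKHR-BD-GAL4;UAS-mCD8gfp, in which GFP should mark only cells where both the pan-neuronal nSyb and the AKHR promoter are active. GFP-marked cells were collected from dissected brains and all samples belong to this single group, with no second condition. Each sample is called a cell after its label, although the labels also speak of pooling, so a sample may hold RNA of 1 cell or of several.

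A ribosome carries a single copy of nearly every one of its proteins, with the acidic stalk proteins as the best-known exception, and their genes are therefore usually expressed together and at a high level. Many flies heterozygous for a lost ribosomal protein gene show the Minute phenotype, with slow development and short bristles. In fruit flies several of these proteins are encoded by a pair of genes, of which one copy is often used throughout the body and the other mainly in the germline.

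Expression was given as FPKM (fragments per kilobase of transcript, scaled by the fragments mapped), which permits genes of one cell to be compared per unit of length. Summed FPKM ranged from 492248 to 539862 over cells, and 4389, 6046 and 5626 genes had an FPKM of at least 1 in cells 1, 2 and 3, here called detected. The files state no depth, and the step between low values gave an estimate of 6240000 to 6620000 fragments per cell. AkhR, the receptor gene that marks these cells, was detected in each at an FPKM of 14.7, 1.90 and 2.52, and so were the neuronal genes brp, elav, Syx1A and Syt1. Markers of other cells were also present: the 5 photoreceptor markers (ninaE, Arr2, Arr1, ninaC and trp) were all detected in every cell, and of the 6 fat body markers 4 were, while Fbp1 and Fbp2 were listed at 0. Tdc2 and Tbh, both needed to make octopamine, were at 0 in cell 1. In cells 2 and 3 Tdc2 had 13.3 and 8.58, and Tbh had 7.34 and 12.6. Vmat, listed with them as a marker, had 154, 71.2 and 95.4 in cells 1, 2 and 3. Vmat and AkhR were thus highest in cell 1.

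Ribosomal protein genes were among the highest genes of every cell. Of the 84 members, 74 were detected in all 3 cells (88.1%), against 31.1% of all genes. Their median FPKM was 362, 994.5 and 480.1 in cells 1, 2 and 3, with a mean of 612 ± 336 (SD, n = 3), against 0, 1.18 and 0.0936 for all other genes. Other genes above 0 in the cell, a reference chosen after the data were seen, had a median FPKM of 29.6, 21.4 and 22.9. On the log2(FPKM + 1) scale the median of the members exceeded that of the other genes above 0 by 3.57, 5.47 and 4.33 (mean 4.46 ± 0.96, SD, n = 3). Among all genes the median member had a percentile of 98.1, 99.3 and 98.6. Of the members, 69, 74 and 71 exceeded an FPKM of 100 in cells 1, 2 and 3, against 8.18%, 6.28% and 7.35% of the other genes.

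**Figure D1:**
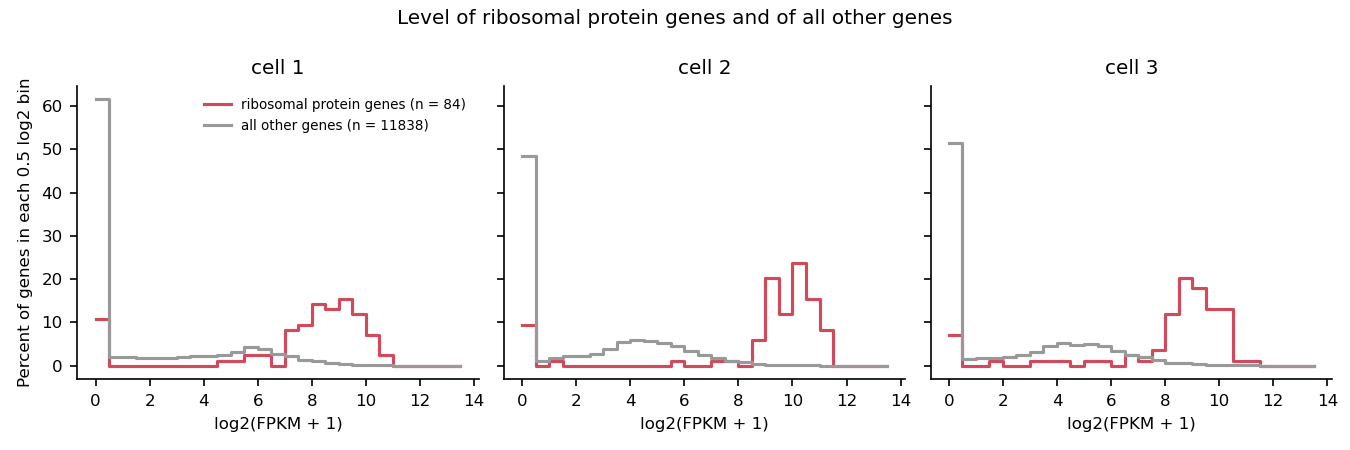
Percent of genes in bins of 0.5 on the log2(FPKM + 1) scale in each of the 3 cells, for the 84 ribosomal protein genes (red) and the 11838 other genes (grey). In each cell most ribosomal protein genes lie to the right of nearly all other genes, around medians of 8.50, 9.96 and 8.91, and a small group of them sits in the lowest bin.

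Together the members took 7.71%, 16.7% and 8.69% of the summed FPKM (mean 11.0% ± 4.94, SD, n = 3). FPKM divides by length and ribosomal protein transcripts are short. Weighted by transcript length, a measure close to a share of fragments and chosen after the data were seen, the members took 4.05%, 8.09% and 4.47%. The share of cell 2 was the highest by either measure, and cells 1 and 3 were close together. As the labels do not settle how many cells a sample holds, more ribosomal protein RNA per cell and more cells rich in it cannot be told apart.

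The core members were closest to each other in level in cell 2. The middle 50% of the 79 core members lay between an FPKM of 200.5 and 628 in cell 1, between 671 and 1464 in cell 2, and between 319 and 813 in cell 3. The ratio of the upper to the lower of these limits was 3.13, 2.18 and 2.55. The 10 highest members of each cell took 33.3%, 26.4% and 29.0% of the FPKM of all members, so no few genes made up the total. The highest member was another gene in each cell: RpS13 in cell 1 (1974), RpL38 in cell 2 (2749) and RpL15 in cell 3 (2117).

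**Figure D2:**
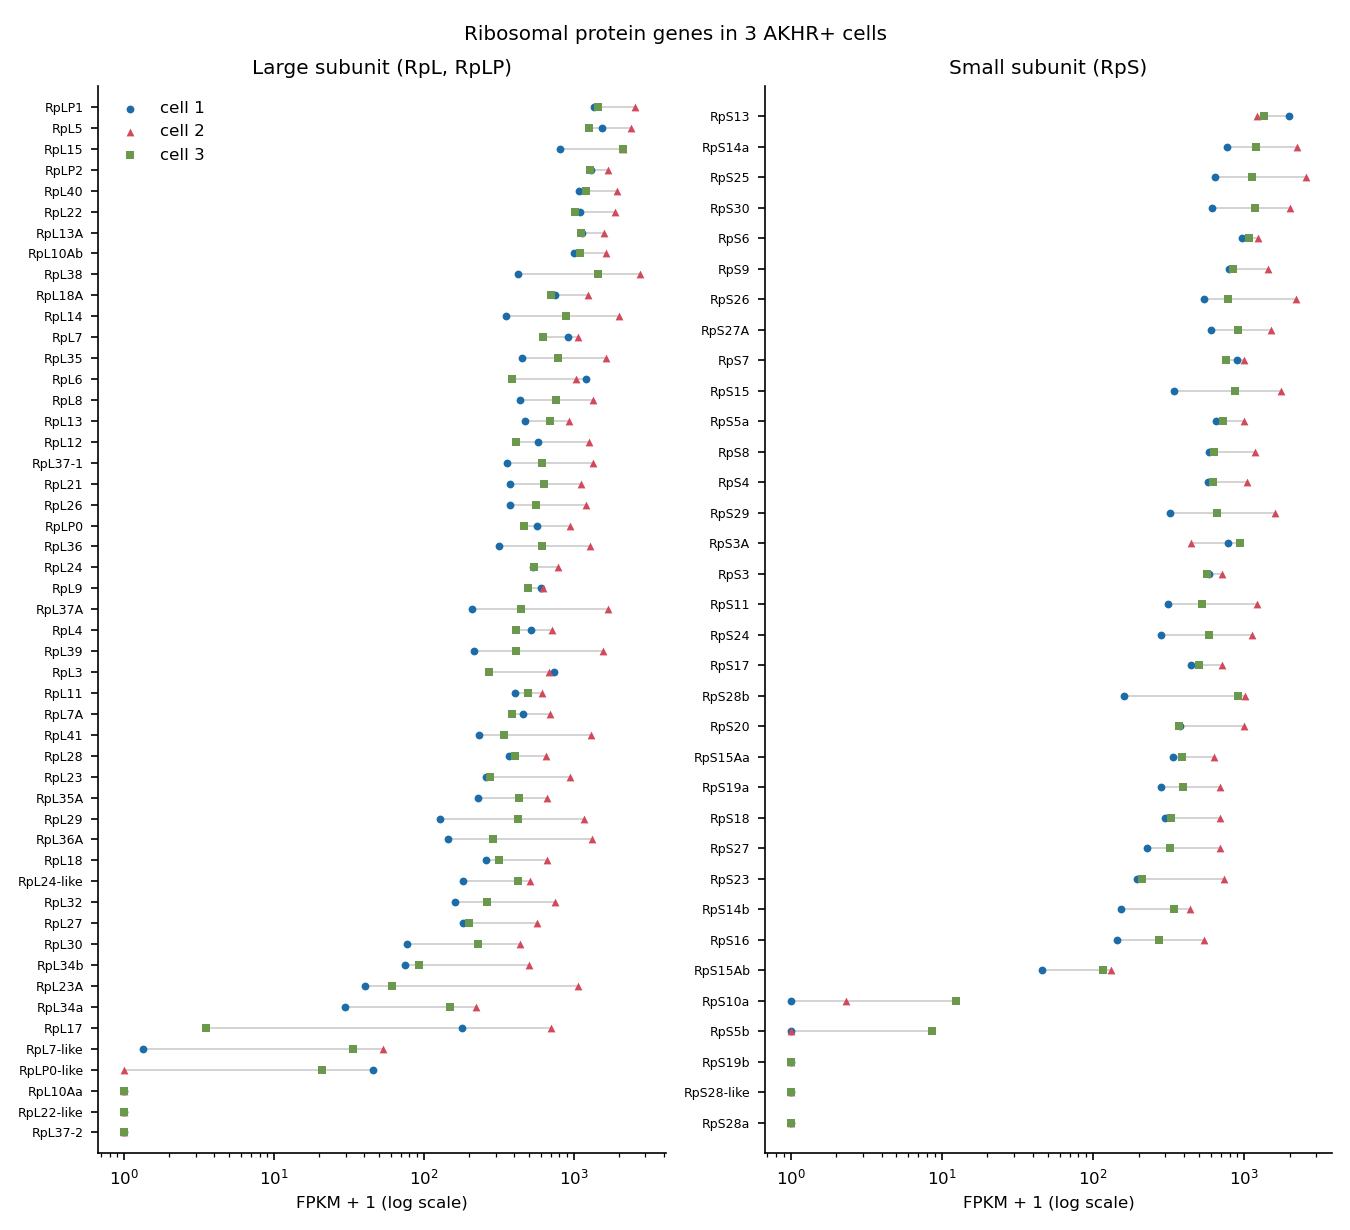
FPKM + 1 (log scale) of every ribosomal protein gene in cell 1 (blue circles), cell 2 (red triangles) and cell 3 (green squares), large subunit on the left and small subunit on the right, ordered by mean log2 level, with a grey line from the lowest to the highest cell. Most genes lie above 100 with cell 2 on the right, and points at the left edge are genes listed at 0, where the symbols of several cells lie on top of each other.

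The 10 members with the highest mean log2 level were RpLP1, RpL5, RpL15, RpS13, RpLP2, RpL40, RpL22, RpS14a, RpL13A and RpS25. RpLP1, an acidic protein of the stalk that recruits translation factors, was highest with an FPKM of 1360.4, 2554 and 1456 in cells 1, 2 and 3 (mean 1790.3 ± 663, SD, n = 3). Its partner RpLP2 was more even, at 1293, 1676 and 1279. RpL5, which binds the 5S ribosomal RNA, was at 1533, 2417 and 1269. In these stalk and RNA-binding genes cell 2 was the highest and cells 1 and 3 lay close together.

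RpL15, a protein of the large subunit core, had 801 in cell 1, against 2141 and 2117 in cells 2 and 3. RpS25 of the small subunit had 642, 2565 and 1124, so its cell 2 value was 4.0 times its cell 1 value. RpL22 was at 1098, 1866 and 1022 and RpL13A at 1134, 1577 and 1116. The mean levels of the 10 genes lay between 1275 for RpL13A and 1790.3 for RpLP1, with SDs from 225 for RpLP2 to 1001 for RpS25. These SDs include the higher values in cell 2 that most of these genes shared. Differences between neighbours within a cell were not tested, so their order is a description.

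The subunits had similar median levels. The median FPKM of the 33 small subunit genes was 341, 992 and 582 in cells 1, 2 and 3, and that of the 46 large subunit genes was 390.3, 1091 and 452. On the log2 scale the small subunit median minus the large subunit median was -0.19, -0.14 and 0.36 (mean 0.01 ± 0.31, SD, n = 3), so its direction differed between cells. The mean changed sign to -0.17 without cell 3. When list means replaced medians it was -0.52 ± 0.37 (SD, n = 3, exact permutation p = 0.25, two-sided). The small subunit was then the lower in every cell, since this p requires the same direction in all 3 cells.

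Of the 3 stalk genes, RpLP1 and RpLP2 stood above the large subunit median in every cell. RpLP0, the base of the stalk, was at 566, 945 and 465. The median log2 level of RpLP0, RpLP1 and RpLP2 exceeded that of the other core large subunit genes by 1.80, 0.66 and 1.58 (mean 1.34 ± 0.60, SD, n = 3). RpLP1 and RpLP2 carried this difference, since RpLP0 alone was near the large subunit median of its cell in cells 2 and 3.

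Both proteins that are made as a fusion with ubiquitin and later cut from it were expressed in every cell. RpL40 was at an FPKM of 1075, 1939 and 1202 (mean 1405 ± 467, SD, n = 3) and RpS27A at 601, 1495.1 and 901 (mean 999 ± 455). RpL40 was the higher of these genes in each cell.

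The members differed between cells mainly by a shift that most of them shared. Of the 84 members, 76 had an FPKM of at least 10 in 2 or more cells, and cell 2 was the highest for 71 of these (93.4%). Of all 4113 genes at this level 31.2% were highest in cell 2, which was singled out after the values were seen. For 56 of the 76 members cell 1 was the lowest, and for 17 it was cell 3. The shares of all genes lowest in these cells are not given here, so both counts describe the members alone. Among the 72 core members at an FPKM of at least 10 in every cell, the median gene was higher in cell 2 than in cell 1 by 1.41 on the log2 scale and lower in cell 3 than in cell 2 by 0.88. The 2384 other genes at that level had medians of -0.30 for cell 2 minus cell 1 and 0.15 for cell 3 minus cell 2. This direction depends on the filter: over all 7207 genes above 0 in some cell, members included, the medians were 0.54 and -0.01.

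The 5 members that were not highest in cell 2 are named here because of that. RpS13 of the small subunit had an FPKM of 1974 in cell 1, against 1212 and 1339 in cells 2 and 3. RpL3, the longest core protein of the rule at 416 residues, had 731, 679 and 270 in cells 1, 2 and 3, and RpL6 had 1201, 1035 and 388. RpLP0-like is described below with the genes near 0. RpS3A, the sole member on chromosome 4, was highest in cell 3, with 775, 441 and 932. RpS3A and RpS13 were the core members with their lowest value in cell 2 (2 of 73).

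Levels of cell type markers are given beside the shift as values. The summed FPKM of the 5 photoreceptor markers was 3900, 7979 and 2742 in cells 1, 2 and 3, so it too was highest in cell 2. That of the 4 neuronal markers was 813, 680 and 584, that of the 4 glial markers was 1110, 1039 and 1047, and that of the 6 fat body markers was 20173, 29450 and 32892. The highest gene of a list weighs most in these sums: Syx1A (675, 296 and 335) among the neuronal and wrapper (732, 323 and 568) among the glial markers were highest in cell 1. The other 3 neuronal markers (elav, Syt1 and brp) and the other 3 glial markers (repo, Gs2 and moody) were all highest in cell 2. The median FPKM of the neuronal markers was accordingly 66.4, 169.6 and 112. That of the glial markers was 187.2, 187.1 and 239.1, so it was highest in cell 3. Among the photoreceptor markers ninaE, Arr2, Arr1 and trp were highest in cell 2, and ninaC was highest in cell 1 (26.0, 21.6 and 13.3). The part of other cell types in the ribosomal protein levels was not tested.

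Transcript length moved with the difference between cells. The median transcript length of the members was 724 bases, against 1575 for the other genes, and their proteins had a median of 155.5 residues, against 395. Members shorter than 400 bases, RpL29, RpL39 and RpL41, had a median of 2.84 for cell 2 minus cell 1 on the log2 scale (n = 3). The 11 members of 400 to 600 bases had 1.71 and the 33 of 600 to 800 bases had 1.58. For longer members the difference was smaller, at 0.65 from 800 to 1000 bases (n = 12) and 0.62 from 1000 to 1500 bases (n = 13). RpL5, the sole longer member, had 0.66.

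Other genes of the same lengths had 0.99 below 400 bases (n = 23), 0.17 from 400 to 600 (n = 109), -0.46 from 600 to 800 (n = 179), -0.81 from 800 to 1000 (n = 183) and -0.75 from 1000 to 1500 (n = 477). In each of these bins the members were therefore higher, relative to cell 1, than other genes of their length. Across the 73 members Spearman's correlation of length with cell 2 minus cell 1 was -0.53, and across 2384 other genes it was 0.18. For cell 3 minus cell 1 it was -0.48 across members and -0.002 across other genes. For cell 2 minus cell 3 it was weaker across members, at -0.26, and 0.23 across other genes. Length and the members' FPKM had a correlation of 0.45, -0.04 and 0.18 in cells 1, 2 and 3. The trend with length was thus largest in the comparisons with cell 1, where short members were low. Genes of one library share its depth and its amplification, so these are descriptions without a p-value. The part of length in the shift was not tested.

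The shortest members illustrate this. RpL41, whose product of 25 residues is the smallest of the members, had an FPKM of 232, 1293 and 343. RpL39, with 51 residues, had 216, 1551 and 411, and RpL29, with 76 residues, had 127, 1161 and 424. Of the members of 400 to 600 bases, RpL37A had 207, 1681 and 439.7 and RpL36A had 145, 1321 and 287. Each was several times higher in cell 2 than in cell 1, with log2 ranges between highest and lowest cell of 2.47 for RpL41, 2.84 for RpL39, 3.18 for RpL29 and RpL36A, and 3.01 for RpL37A.

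At the other end, 5 members were nearly level over the cells. RpL9 had an FPKM of 602, 618 and 495, RpS3 had 584, 714 and 564, and RpS7 had 896, 992 and 760.2. RpS6, the small subunit protein that is phosphorylated downstream of TOR signaling, had 968, 1229 and 1065. With RpLP2, given above, their log2 ranges lay between 0.32 for RpL9 and 0.39 for RpLP2. RpL32, the fly reference gene of many PCR assays and named here for that use, was not among the level genes, with 161, 749.9 and 263 and a log2 range of 2.21.

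Over the 76 members the median log2 range was 1.53, against 1.94 over all 4113 genes at an FPKM of at least 10 in 2 or more cells. Of the 76 members, 25 had a range of at most 1 (32.9%), against 22.5% of those 4113 genes. This order depends on the low genes of the comparison. At an FPKM of at least 10 in every cell the median range was 1.5 for 73 members and 1.25 for 2384 other genes, and for the 71 other genes above 500 in every cell it was 0.90. For a given gene a range over 2 cells cannot exceed that over 3. Without cell 2 the members' median range was 0.55, without cell 1 it was 0.88, and without cell 3 it was 1.44. Other genes at an FPKM of at least 10 in both remaining cells had 0.76, 0.65 and 0.90. The members were thus lower than other genes between cells 1 and 3, and higher in the pairs with cell 2.

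When each cell was centred on its median member, a step added with the values known, the spread among members was smaller. The median centred range was 0.72 for the 73 members and 1.23 for the 2384 other genes, centred in the same way on their own median. Of these members, 51 stayed within 1 on the log2 scale (69.9%), against 37.5% of the other genes. The 2384 other genes were not matched to the members in level. Without centring, the 71 other genes above an FPKM of 500 in every cell had a median range of 0.90. No centred range was computed for those 71 genes, so the part of expression level in the difference from other genes was not tested. RpS19a and RpL18 kept their place relative to the median member most closely, with centred ranges of 0.10 and 0.13. RpS3A and RpS13, against the shared shift, had 2.14 and 2.03.

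**Figure D3:**
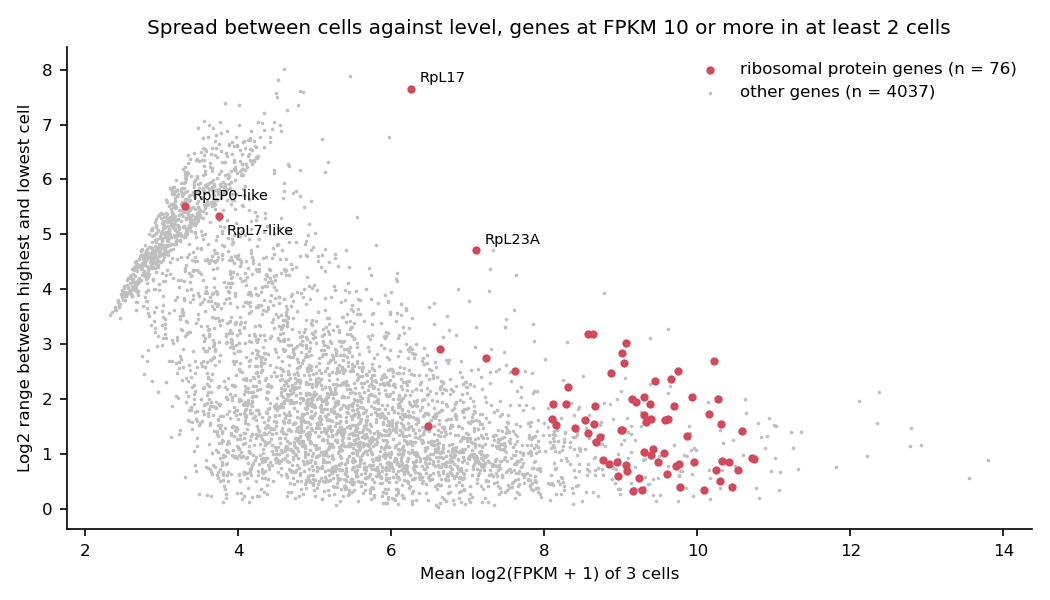
Log2 range between the highest and the lowest cell against the mean log2(FPKM + 1) of 3 cells, for 76 ribosomal protein genes (red) and 4037 other genes (grey) at an FPKM of at least 10 in 2 or more cells. Most ribosomal protein genes lie at a mean above 8 with ranges of at most 3.18, and RpL17, RpL23A, RpL7-like and RpLP0-like are set apart by ranges of 7.66, 4.71, 5.33 and 5.51.

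The order of members within a cell was compared between cells. Spearman's correlation across the 84 members was 0.655 between cells 1 and 2, while cell 3 gave 0.829 with cell 1 and 0.819 with cell 2. Across the 7207 genes above 0 in some cell it was 0.576, 0.609 and 0.668. Members listed at or near 0 in all cells add to the first set of values. Across the 72 core members at an FPKM of at least 10 in every cell it was 0.477, 0.748 and 0.744, against 0.538, 0.622 and 0.712 across the 2384 other genes at that level. On this set the members were thus less alike than other genes between cells 1 and 2, more alike between cells 1 and 3, and close to them between cells 2 and 3.

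A value near 0 in a single cell was rare among members. Of the 76 members at an FPKM of at least 10 in 2 or more cells, 2 were under 1 in the remaining cell (2.63%), against 20.5% of the 4113 genes at that level, and both were -like genes. RpL7-like, the relative of yeast Rlp7, which acts in assembly of the large subunit, had an FPKM of 0.332, 52.4 and 32.7 in cells 1, 2 and 3. The value in cell 1 stood for about 2.68 fragments (95% exact Poisson interval 0.488 to 8.29, counting error only, at the estimated depth). RpLP0-like, the relative of yeast Mrt4, an assembly factor that holds the place of P0, had 44.5, 0 and 19.97. No core member that reached 10 in the other cells was under 1 in any cell (0 of 73).

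RpL17 came closest among core members. This large subunit gene (FBgn0029897, chromosome X from 6741537 to 6744238 on the minus strand in BDGP6, with 4 small nucleolar RNA genes inside it) had an FPKM of 178 in cell 1, 707 in cell 2 and 2.51 in cell 3. By the estimated depth these stood for about 1078, 4026 and 15.0 fragments, the last with a 95% exact Poisson interval of 8.39 to 24.7. Its log2 range of 7.66 was the largest of the members. The next core member was RpL23A (FBgn0026372, chromosome 3L from 1666288 to 1668654 on the minus strand), high in cell 2 alone at 39.6, 1061 and 60.3, a range of 4.71.

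The members detected in no cell or in some cells were mostly one copy of a paralog pair. Listed at 0 in all 3 cells were 6 members (7.14%), against 39.5% of all genes: RpL10Aa, RpL22-like, RpL37-2, RpS19b, RpS28a and RpS28-like. At the estimated depth, 3 fragments would have given these genes an FPKM of 0.368 to 1.58, so lower levels were not detectable. RpS5b was at 0, 0 and 7.65 in cells 1, 2 and 3, and RpS10a at 0, 1.32 and 11.3. In cell 3 these stood for about 45.7 and 44.7 fragments, and in cell 2 RpS10a for about 4.97.

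RpL22-like, RpS5b and RpS19b are known as copies used mainly in the germline. Of the germline markers, vas, bam and Mst87F were analysed and were listed at 0 in all 3 cells. RpS5b in cell 3 was therefore found in a sample where these germline markers were at 0.

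Both genes had values for 12 of the 13 paralog pairs considered, RpS10a being without its partner. The pairs were compared within each cell by the difference of log2(FPKM + 1), first gene minus second gene, and tested over the cells by exact sign-flip permutation (two-sided). With 3 cells this test cannot give a p below 0.25, so none of the 12 comparisons could pass a threshold of 0.05. In 11 pairs the same gene was higher in every cell (p = 0.25 each, exact permutation test). In the pairs with RpL24-like, RpL7-like and RpLP0-like the second gene is the relative of an assembly factor.

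For 5 of these pairs one copy was listed at 0 in all cells while its partner was high. RpL10Aa was at 0 and RpL10Ab at 1002, 1632 and 1100.1 in cells 1, 2 and 3. RpL22 was at the levels given above and RpL22-like at 0. RpL37-1 was at 357, 1341 and 608 and RpL37-2 at 0. RpS19a was at 279, 693 and 391 and RpS19b at 0, while RpS28a was at 0 and RpS28b at 160, 1008 and 906. The copy above 0 is thus the a copy in RpS19 and the b copy in RpL10A and RpS28. RpS5a, at 646, 997 and 719, was accompanied by RpS5b in cell 3 alone, where it was 93.9 times as high.

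Both genes were clearly expressed in 4 pairs, including RpL24 with the assembly factor relative RpL24-like. RpS14a had an FPKM of 762, 2225 and 1191, against 152, 439 and 342 for RpS14b, a ratio of 5.02, 5.07 and 3.49 (log2 difference 2.15 ± 0.31, SD, n = 3). These genes lie in tandem on the plus strand of chromosome X (BDGP6, 7933742 to 7934677 and 7934898 to 7935792), with 220 bases between them, and are known to encode the same protein of 151 residues. Reads that match both copies could be assigned to either, and the split of such reads is uncertain. RpS15Aa had 339, 628 and 387, against 45.1, 129.5 and 116 for RpS15Ab, a log2 difference of 2.29 ± 0.58. Their ratio was 7.51, 4.85 and 3.33, and as both products have 130 residues and are near-identical, the same uncertainty applies.

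RpL24 had 529, 777 and 538, against 182, 506 and 421 for RpL24-like, the relative of the yeast assembly factor Rlp24. Their log2 difference was 0.84 ± 0.62 (SD, n = 3), the smallest of the pairs that kept their order. RpL24-like was the highest of the -like genes in every cell. RpL7 had 907, 1062 and 617 beside RpL7-like, and RpLP0 the values given above beside RpLP0-like, with log2 differences of 5.97 ± 2.98 and 6.0 ± 3.39 whose SDs reflect the cells in which the -like gene was at or near 0.

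RpL34 was the pair whose order changed. RpL34a had an FPKM of 28.6, 222 and 148, against 73.2, 499 and 91.2 for RpL34b. RpL34a was thus lower in cells 1 and 2 and higher in cell 3, with log2 differences of -1.32, -1.17 and 0.69 (mean -0.60 ± 1.12, SD, n = 3, exact permutation p = 0.5, two-sided). Both genes are on chromosome 3R, far apart, and both were among the lower core members. As separate genes they varied widely, with log2 ranges of 2.91 for RpL34a and 2.75 for RpL34b.

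**Figure D4:**
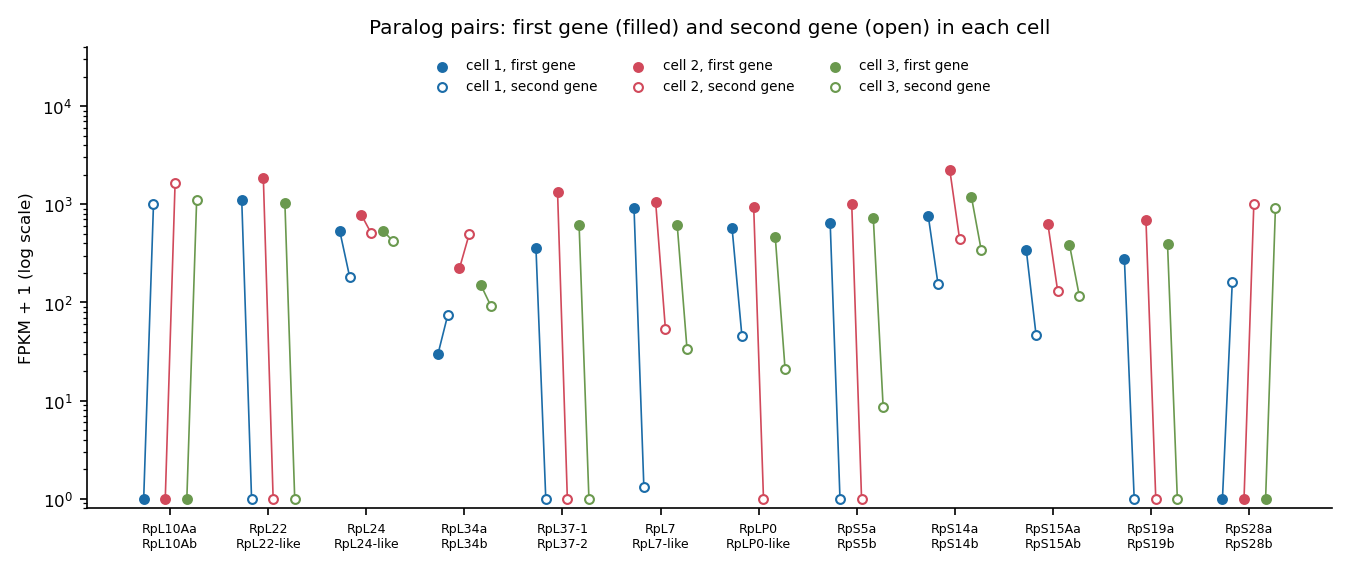
FPKM + 1 (log scale) of the first gene (filled) and the second gene (open) of 12 paralog pairs in cells 1 (blue), 2 (red) and 3 (green), joined by a line within each cell. In 11 pairs the lines slope the same way in every cell, 5 of them ending at a gene listed at 0 in all cells, and in RpL34 the slope of cell 3 is opposite to that of the other cells.

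Related genes outside the symbol rule were set beside the members. The small subunit protein gene sta (stubarista) had an FPKM of 410, 1363 and 443, and Rack1, which sits on the small subunit head, had 545, 942 and 503. Both thus lay within the range of the core members and were highest in cell 2, as most members were. Of 26 translation factor genes listed, 6 had a value (eEF1delta, eIF5, eIF5B, eIF6, pAbp and Tctp), and the others are not analysed here. Relative to the members, the median log2 level of these 6 was lower by 1.03, 3.57 and 2.19 in cells 1, 2 and 3, a mean of -2.26 ± 1.27 (SD, n = 3).

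These 6 genes were highest in different cells. The poly(A)-binding protein gene pAbp was highest in cell 3 (378, 473 and 711), eIF5 in cell 1 (203, 56.4 and 50.5) and Tctp in cell 2 (374, 630.3 and 267). Of 14 ribosome assembly genes listed, 9 had a value, among them the nucleolar genes Nop56 (43.4, 39.4 and 104) and Fib, fibrillarin (0.226, 13.0 and 8.95). The median of these 9 was an FPKM of 1.62, 35.9 and 21.5, far below the members' median in each cell, and 5 of the 9 were detected in all cells.

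The members shared features that the rule did not use. Small nucleolar RNA genes, whose products guide modification of ribosomal RNA, lay within 26 of the 84 members (31.0%), against 2.26% of the other genes. These were 71 small nucleolar RNA genes, with 14 of them in RpS5a and 7 in RpS7. The 26 core members that hold one had a median FPKM of 544, 1048 and 626, against 339, 1008 and 465 for the 53 core members without one. They were also longer, with a median transcript length of 862 bases against 682.5, and had a median log2 range of 0.97 against 1.61. Length and the presence of such a gene therefore moved together, and their parts were not tested.

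The members were spread over all chromosome arms, as other genes were. There were 13 on X, 16 on 2L, 19 on 2R, 12 on 3L, 23 on 3R and 1 on chromosome 4. Shares of members and of other genes were 15.5% and 15.9% on X, 19.0% and 19.4% on 2L, and 22.6% and 20.2% on 2R. On 3L they were 14.3% and 19.6%, on 3R 27.4% and 24.3%, and on chromosome 4 they were 1.19% and 0.495%. The 13 core members on X had a median FPKM of 357, 1008 and 616 in cells 1, 2 and 3, inside the range of the medians of the arms of chromosomes 2 and 3 in every cell.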

How the data were processed

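GFP-marked AKHR+ neurons were taken from dissected brains by pipette, and their RNA was made into cDNA by a modified SMART-seq2 method, amplified, fragmented and sequenced. The authors deposited FPKM per gene, and no counts. The submitters' processing notes name HISAT; the counting tool, genome build and annotation are not given in the sources used here. The values of cell 3 stood under the heading of another sample number, and the label's number was kept.

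The files held 12180 lines and 11922 FlyBase IDs. Values of the 117 repeated IDs, 0 of them members, were averaged. Symbols, coordinates, transcript lengths and contained small nucleolar RNA genes came from the BDGP6.54 annotation (Ensembl release 115), in which 11794 IDs had a symbol. Members and gene lists were chosen with earlier results of these data known. Named genes were all paralog pairs, the 10 highest members, members under FPKM 1 in some cell, the 10 most and 5 least variable, the stalk and ubiquitin fusion genes, sta and Rack1. The genes RpL3, RpL6, RpL18, RpL32, RpL38, RpL41 and RpS3A were named after their values were seen.

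Values were analysed as log2(FPKM + 1), where a difference understates that of low genes, in Python 3.11.15 with numpy 2.4.6, pandas 2.3.3 and scipy 1.17.1. Depth was estimated as the step that best put low values of genes with 1 transcript (up to 10 fragments) on whole fragments. Of 194, 163 and 177 such values, 66.5%, 46.0% and 55.9% lay within 0.1 of a whole number, so the depths are approximate, as are fragments per gene and the FPKM of 3 fragments, used as the limit below which a gene listed at 0 was not detectable. No molecular identifiers were described, so intervals cover counting error only. Nothing states that the samples came from different flies, and spread between them may be technical. No member had an identical value above 0 in any pair of cells (0 genes). The test functions and the depth search were tested on simulated data.

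The alternatives tried were the omission of each cell in turn, 0.1 as pseudocount, other detection limits, core members only, list means, summed repeated lines, Pearson's correlation, and rescaling each cell to a common sum. A length-weighted share, a reference of genes above 0, a filter in every cell and centring on the median member were chosen after the data were seen.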

Additional observations from a re-analysis of the deposited data

How the results depend on the processing

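For 21 results, 134 values were recomputed under alternatives, and 124 of them stayed the same, 8 moved and 2 reversed. A test stayed the same if it kept its direction and side of the threshold. A count did so within a fixed ratio of the main count, and other values within the spread between cells or pairs of cells. Of the 134 values, 102 were sign-flip tests. These cannot reach 0.05 with 3 cells (smallest p 0.25) or 2 cells (0.5), so their side of the threshold shows no stability. The difference between the subunits reversed to -0.17 without replicate 3 and to -0.52 with list means, and lay between -0.17 and 0.11 as each replicate was left out. The members' median range between cells went to 0.75 when each cell was centred on its median member, and to between 0.55 and 1.44 as each replicate was left out, lowest without replicate 2. For a given gene a range over 2 cells cannot exceed that over 3 cells, so leaving out a replicate cannot raise it. The similarity of cells ranged from 0.655 to 0.829 as each replicate was left out, and Pearson's correlation gave 0.913. The share of the members was 5.54% when weighted by length. Members near 0 in a single cell numbered 1 when low meant exactly 0 and 0 among core members. Leaving out a replicate gave no value for that count, which needs 3 cells. The cause was not tested for any of these. No paired analysis was possible because there is a single group. Most translation factors listed had no value, so that comparison covers 6 genes.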
